A study of Mus musculus with 6 samples.

Results

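The insulin-like growth factor (IGF) system was examined through 9 genes: the ligands Igf1 and Igf2, the receptor Igf1r, and the binding proteins Igfbp2 to Igfbp7. Its members were all probe sets whose platform annotation gives exactly 1 gene symbol belonging to these 9 genes. This gave 26 probe sets, out of 34945 with a single symbol and 45101 in the table, and each of the 9 genes had at least 1. A probe set is a group of short probes on the array that reads a transcript region, so probe sets of a gene share their samples and are not replicates.

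The arrays compared 2 sorted bone marrow fractions of the same 3 mice. The mice had the genotype Grem1;TdTomato on a C57BL/6J background, were 6 to 8 weeks old, were labelled male and had all received tamoxifen by mouth. The Grem1+ fraction (3 arrays) was sorted for Grem1, the gene of the secreted bone morphogenetic protein antagonist Gremlin 1, and the Grem1- fraction (3 arrays) was non-recombined and negative for CD45, CD31 and Ter-119. The labels state that gate for the Grem1- fraction alone, so the fractions differ in gating as well as in the reporter, and the recombinase that drives the reporter is not given in the sources used here. Levels are log2 expression values made with GCRMA, and differences are Grem1+ minus Grem1- on the log2 scale.

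IGF-I and IGF-II are small secreted proteins related to insulin. Both signal through the IGF-I receptor, a tyrosine kinase of the cell surface, and the binding proteins hold the ligands in body fluids and matrix, where they can block or prolong their action. In the skeleton, IGF-I is a growth factor of growth plate cartilage and of bone-forming cells, and it acts downstream of growth hormone.

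Igf1 and Igfbp7 were higher in Grem1+ cells, while 0 of 5 probe sets of the receptor and 0 of 6 of Igfbp4 passed the test. A probe set was tested if its level was above log2 4 on at least 3 of the 6 arrays, a chosen limit for dim signal that is not a measured detection limit. In limma, fitted over 18157 probe sets with the mouse as a block, 4 of the 20 tested member probe sets passed as higher and 0 as lower in Grem1+, while 6 of the 20 had an unadjusted p under 0.05. Over all probe sets tested, 17.8% passed, 10.1% as higher and 7.76% as lower. Of the 4, 3 belong to Igf1 and 1 to Igfbp7, and 1 of those of Igf1 entered the test through its Grem1+ arrays alone, so nothing is read from the share. With any mouse left out and the block kept, limma called 0 probe sets of any gene, and without the block 3, 2 and 3 member probe sets were called when mouse 1, 2 or 3 was left out. In these bulk fractions, fewer cells of a type and less RNA per cell cannot be told apart.

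**Figure D1:**
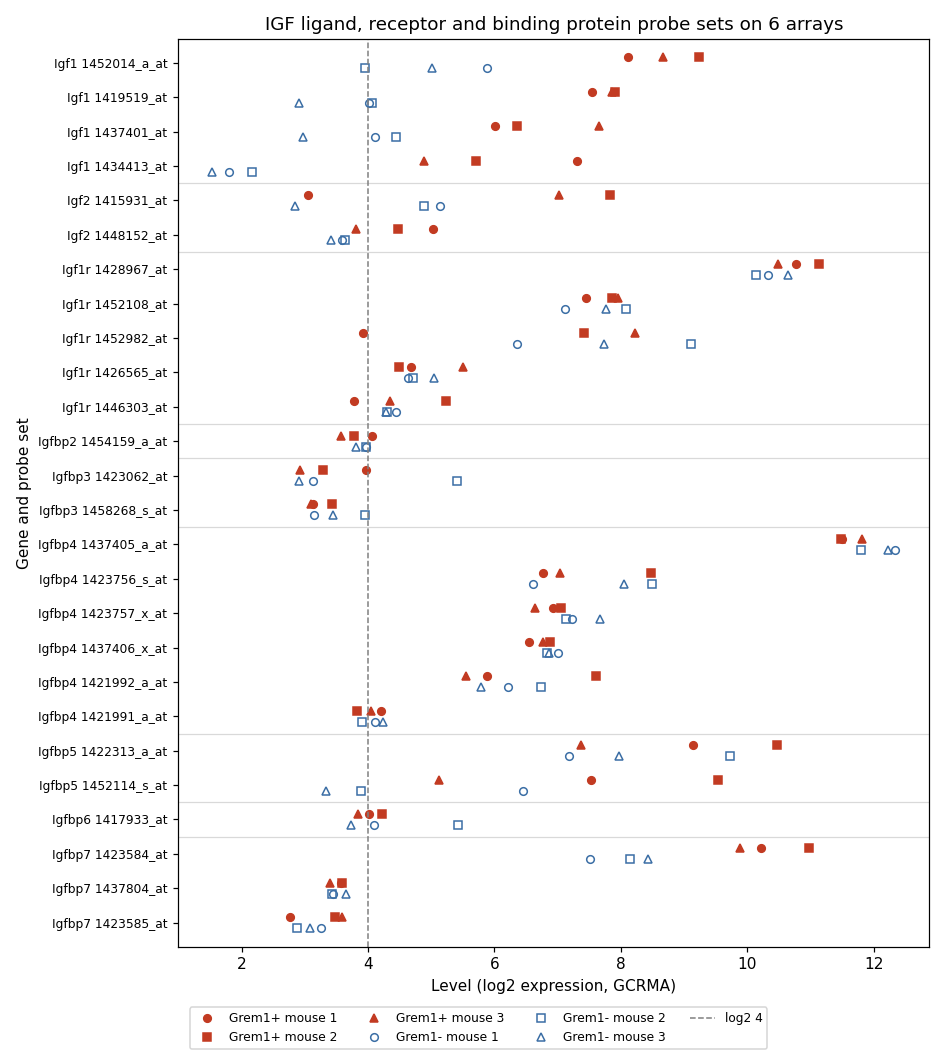
Level of each of the 26 probe sets (log2 expression) on the 6 arrays, with Grem1+ as filled red symbols above Grem1- as open blue symbols, symbol shape for the mouse and a dashed line at log2 4. The 4 Igf1 probe sets and Igfbp7 1423584_at separate by fraction, while those of Igf1r and most of those of Igfbp4 overlap.

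The arrays themselves set some limits on these values. Array medians ran from 3.74 to 3.81. Both arrays of mouse 3 held Xist, the RNA that coats the silenced X of females, at 10.60 in Grem1+ and 11.04 in Grem1-, against the male label, while no other array exceeded 2.99, so called members are also given without mouse 3, except Igf1 1434413_at, whose Grem1- arrays are all dim. The Gapdh control probe sets, read at the 3' end minus the 5' end as a measure of shortened RNA, gave 2.98 to 3.88 in Grem1+ and 2.31 to 2.99 in Grem1-. The beta-actin control probe sets, read the same way, showed no such shift, at -0.03 to 0.17 in Grem1+ and 0.15 to 0.17 in Grem1-. Grem1 itself stood at 4.49, 4.14 and 8.61 in Grem1+ and at 3.69, 3.75 and 3.70 in Grem1-, a difference that did not pass (limma adjusted p = 0.245). Ptprc, the gene of CD45, was at 7.29 to 10.56 in Grem1+ and at 11.78 to 12.37 in Grem1-, despite the gate of that fraction.

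The start regions of 3 genes are shown because Igf1 and Igfbp7 carried the differences and Igfbp4, with the most probe sets, did not. Each runs 5′ to 3′ on the gene's strand from 250 bases before to 50 bases after an annotated start in RefSeq (GRCm38.p6), and RefSeq windows matched all 9 genes. Capitals mark matches, on either strand, to ACAATGG, a sequence of the kind bound by SOX transcription factors, to TATAAA, the TATA box, and to GGGCGG, the GC box bound by Sp1. No match overlapped a match of another motif.
Igf1, chr10:87860861-87861160, plus strand: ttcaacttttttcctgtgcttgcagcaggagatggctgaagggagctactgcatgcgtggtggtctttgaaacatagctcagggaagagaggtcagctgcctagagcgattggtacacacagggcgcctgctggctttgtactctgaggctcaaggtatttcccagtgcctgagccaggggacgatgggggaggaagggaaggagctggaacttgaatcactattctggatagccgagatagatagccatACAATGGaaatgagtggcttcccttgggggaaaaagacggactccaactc
Igfbp7, chr5:77407996-77408295, minus strand: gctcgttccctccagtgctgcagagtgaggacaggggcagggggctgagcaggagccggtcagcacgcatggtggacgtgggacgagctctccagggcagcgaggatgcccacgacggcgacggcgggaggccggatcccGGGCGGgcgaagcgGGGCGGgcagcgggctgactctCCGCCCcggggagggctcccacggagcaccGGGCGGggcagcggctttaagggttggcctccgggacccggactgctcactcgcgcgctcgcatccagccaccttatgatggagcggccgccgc
Igfbp4, chr11:99040994-99041293, plus strand: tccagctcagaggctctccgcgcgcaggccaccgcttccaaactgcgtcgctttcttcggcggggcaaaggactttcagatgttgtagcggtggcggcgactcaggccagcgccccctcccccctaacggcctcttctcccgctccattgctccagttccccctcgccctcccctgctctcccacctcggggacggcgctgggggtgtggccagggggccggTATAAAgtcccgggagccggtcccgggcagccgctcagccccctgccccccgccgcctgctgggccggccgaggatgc

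The Igf1 window held 1 ACAATGG, which begins at the annotated start itself. The Igfbp7 window held 4 GC boxes, at 110, 96, 74 and 44 bases before the start, of which the one at 74 lies on the opposite strand. The Igfbp4 window held 1 TATA box 28 bases before its start. GC boxes were not particular to a called gene: the Igf1 window held none, while windows of Igf1r, Igfbp2 and Igf2, without a call, held up to 2, 3 and 2. Among 32851 RefSeq windows of 300 bases, 3.66% held ACAATGG, 13.6% TATAAA and 35.7% GGGCGG. The windows also differ in CG dinucleotides, with 6 for Igf1, 33 for Igfbp7 and 27 for Igfbp4. The motifs were chosen with these sequences in view and describe letters only, since binding was not measured.

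Igf1, the ligand that growth hormone induces, had 4 probe sets, and on each of them every Grem1+ array lay above every Grem1- array. Such separation, with Grem1+ on top, was seen for 21.6% of all tested probe sets. In mice 1, 2 and 3, Igf1 1419519_at stood at 7.54, 7.91 and 7.86 in Grem1+ and at 4.02, 4.07 and 2.91 in Grem1-. The Grem1+ arrays lie close together and the Grem1- arrays sit at or below the edge of dim signal. The difference was 4.11 (SE 0.40, 95% interval 3.01 to 5.20, limma adjusted p = 0.0123). Raising dim values to log2 4 gave 3.74, or 13.4-fold, and leaving out mouse 3 gave 3.68.

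The other Igf1 probe sets ran the same way with more spread. Igf1 1452014_a_at was at 8.12, 9.24 and 8.67 in Grem1+ and at 5.88, 3.95 and 5.01 in Grem1- (difference 3.72, SE 0.66, limma adjusted p = 0.0321, and 3.76 without mouse 3). Mouse 2 held both its highest Grem1+ and its lowest Grem1- value, and the gap between fractions was 2.23 in mouse 1 and 5.28 in mouse 2. Igf1 1434413_at was at 7.31, 5.71 and 4.89 in Grem1+ and at 1.79, 2.16 and 1.53 in Grem1-, all 3 dim. It was at least 3.92-fold higher in Grem1+ (limma adjusted p = 0.0188), but with dim values set to 4 it lost its call (adjusted p = 0.0875). Igf1 1437401_at was at 6.01, 6.35 and 7.66 in Grem1+ and at 4.11, 4.44 and 2.97 in Grem1-. The estimate of 2.83 (SE 0.69) missed the threshold (limma adjusted p = 0.0614), as it did without the filter on dim probe sets (adjusted p = 0.143). It passed without the mouse block (adjusted p = 0.0169) and with dim values set to 4 (adjusted p = 0.0393). With the filter raised to log2 6 it passed too (adjusted p = 0.040). Only its Grem1+ arrays exceed log2 6, so nothing is read from that call. Igf1 1419519_at alone also passed without the filter on dim probe sets (adjusted p = 0.0312).

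**Figure D2:**
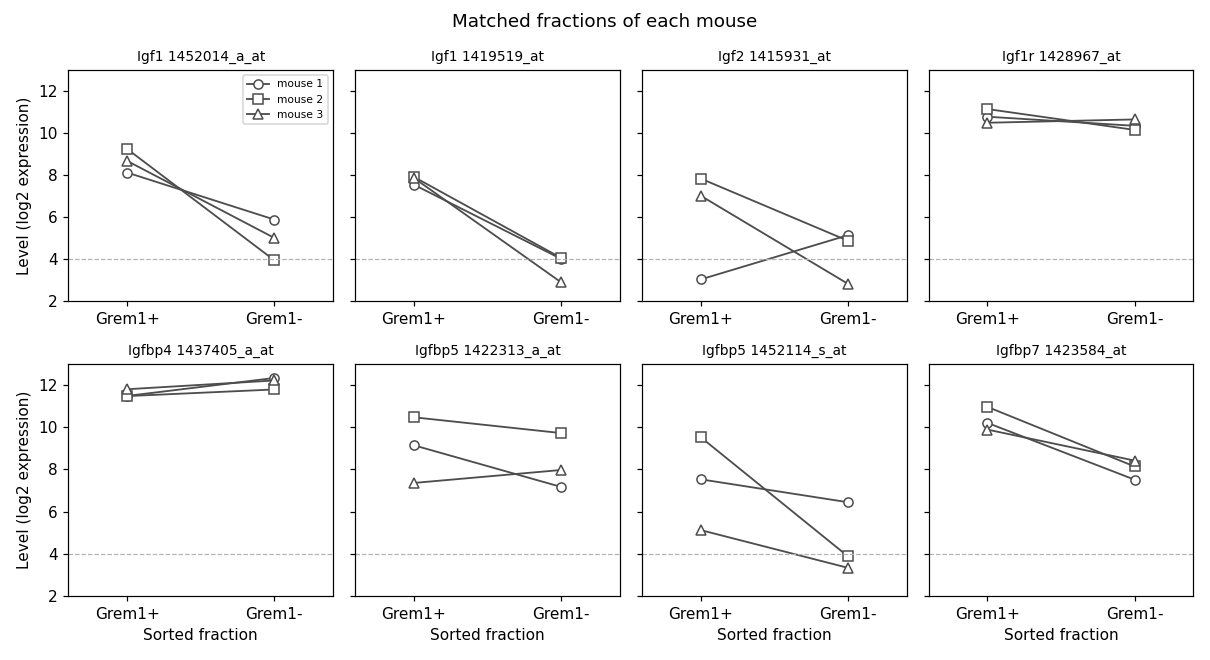
Levels (log2 expression) of 8 member probe sets in the Grem1+ and Grem1- fraction of each mouse, with a line joining the fractions of a mouse and a dashed line at log2 4. Both Igf1 probe sets and Igfbp7 are higher in Grem1+ in all 3 mice, Igf2 runs the other way in mouse 1, and Igfbp5 spreads widely between mice.

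Igf1 is also a product of macrophages. Of 10 macrophage markers, 6 were bright enough to test, with 0 higher and 2 lower in Grem1+ (Csf1r and Cd14), and their summed level was log2 9.97 to 11.71 in Grem1+ and 12.86 to 13.01 in Grem1-. C1qb, which did not pass (limma adjusted p = 0.747), was at 3.39, 6.98 and 8.83 in Grem1+ and at 7.10, 4.78 and 4.55 in Grem1-. C1qa and C1qc were below log2 4 on all arrays of both fractions. Of 13 cartilage markers, 12 were higher and 0 lower in Grem1+, with summed levels of 15.26 to 15.56 in Grem1+ and 12.37 to 12.97 in Grem1-. Osteoblast markers gave 4 higher and 0 lower among 7 measured of 10. Of the 4, Sp7 was dim on all Grem1- arrays and entered the test through Grem1+ alone. By their brightest tested probe set, 11.1% of all genes were higher and 7.81% lower. The part of these cell types in the Igf1 difference was not tested.

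Igf2, the imprinted ligand best known from fetal growth, did not differ beyond its spread. Igf2 1415931_at was at 3.04, 7.83 and 7.02 in Grem1+ and at 5.14, 4.88 and 2.84 in Grem1-. The level was higher in Grem1+ in mice 2 and 3 and lower in mouse 1, where it was dim. The difference was 1.68 (SE 1.34, 95% interval -1.95 to 5.31, limma adjusted p = 0.447), and it was 3.57, 1.04 and 0.43 without mouse 1, 2 or 3. The second probe set, Igf2 1448152_at, was at 5.03, 4.47 and 3.80 in Grem1+ and at 3.58, 3.63 and 3.42 in Grem1-. Its fractions did not overlap, as for 17.2% of all single-symbol probe sets with Grem1+ on top, but with 2 arrays above log2 4 it was not tested. Over all 26 probe sets, 6 had Grem1+ wholly above and 1 had it wholly below, the last against 13.9% of single-symbol probe sets.

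Igf1r, the receptor that carries the signal of both ligands, had 5 probe sets, and 0 passed. The brightest, Igf1r 1428967_at, was at 10.77, 11.13 and 10.48 in Grem1+ and at 10.33, 10.14 and 10.64 in Grem1-. The fractions overlap, and the difference was 0.42 (SE 0.36, 95% interval -0.54 to 1.38, limma adjusted p = 0.471). Igf1r 1452108_at, 1426565_at and 1446303_at differed by 0.10, 0.10 and 0.12, with intervals within -1.01 to 1.25. Igf1r 1452982_at spread most, at 3.91, 7.42 and 8.23 in Grem1+ and at 6.36, 9.10 and 7.74 in Grem1-, and the estimate of -1.21 (SE 0.66) missed the threshold (limma adjusted p = 0.277) and was -0.60, -0.98 and -2.07 without mouse 1, 2 or 3. It was lower in Grem1+ in mice 1 and 2 and higher in mouse 3.

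**Figure D3:**
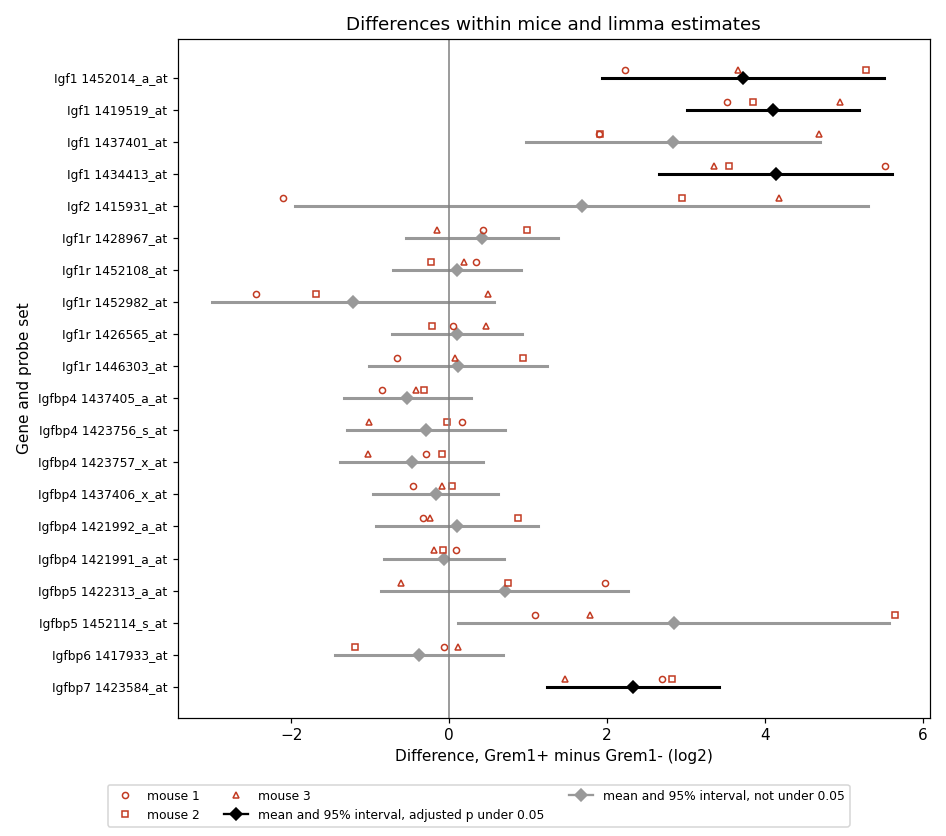
Difference, Grem1+ minus Grem1- (log2), of the 20 tested member probe sets, with open symbols for the 3 mice and a diamond with its 95% interval for the limma estimate, black where the adjusted p was under 0.05. The 4 black estimates lie right of 0, that of Igf1 1434413_at resting on Grem1- values that are all dim, and the Igf1r and Igfbp4 intervals all include 0.

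Among the binding proteins, Igfbp7 alone passed the test. Igfbp7 binds IGFs weakly and is abundant in vessel walls and matrix. Igfbp7 1423584_at was at 10.21, 10.97 and 9.89 in Grem1+ and at 7.52, 8.14 and 8.42 in Grem1-. The 3 Grem1+ arrays lie above all 3 Grem1- arrays, and mouse 3 had the smallest gap, 1.47, against 2.69 and 2.83 in mice 1 and 2. The difference was 2.33 (SE 0.40, 95% interval 1.24 to 3.42, limma adjusted p = 0.0304), or 5.03-fold, and 2.76 without mouse 3. When dim probe sets were kept in the fit it missed the threshold (adjusted p = 0.0638). Igfbp7 1437804_at and 1423585_at were dim on all 6 arrays, at 2.77 to 3.60 in Grem1+ and 2.87 to 3.65 in Grem1-, and were not tested.

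Endothelial cells are a common source of Igfbp7. Of 8 endothelial markers, 3 were bright enough to test, with 0 higher and 0 lower in Grem1+. Pecam1, Cdh5, Kdr, Tek, Emcn and Tie1 were below log2 4 on all Grem1+ arrays, and of these Cdh5, Kdr, Emcn and Tie1 were below it on all Grem1- arrays as well. The summed level of the list was log2 6.33 to 6.74 in Grem1+ and 6.89 to 8.15 in Grem1-. The part of endothelial cells in the Igfbp7 difference was not tested.

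Igfbp4, which mainly inhibits IGF action and is cleaved by the protease PAPP-A, had 6 probe sets, all tested, with 0 called in either direction. Igfbp4 1437405_a_at was at 11.49, 11.48 and 11.81 in Grem1+ and at 12.34, 11.80 and 12.23 in Grem1-. It was lower in Grem1+ in each mouse, but the fractions overlap and the difference of -0.53 (SE 0.30, 95% interval -1.33 to 0.27) did not pass (limma adjusted p = 0.290). Igfbp4 1423757_x_at was at 6.93, 7.05 and 6.63 in Grem1+ and at 7.23, 7.14 and 7.66 in Grem1-. Those ranges do not overlap, as for 20.4% of tested probe sets with Grem1+ below, yet the estimate of -0.47 (SE 0.34) missed the threshold as well (limma adjusted p = 0.394). The differences of the other 4 ran from -0.29 to 0.10. All 6 carry a suffix that marks probes which further transcripts may share.

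Igfbp5, which binds bone matrix and is made by osteoblasts, spread widely between mice. Igfbp5 1422313_a_at was at 9.15, 10.48 and 7.36 in Grem1+ and at 7.17, 9.73 and 7.98 in Grem1-. Igfbp5 1452114_s_at was at 7.53, 9.53 and 5.12 in Grem1+ and at 6.45, 3.88 and 3.33 in Grem1-. On both probe sets mouse 2 was highest and mouse 3 lowest within Grem1+, and the fractions overlap. The differences of 0.70 (SE 0.58, limma adjusted p = 0.461) and 2.84 (SE 1.01, limma adjusted p = 0.131) did not pass. The first difference was 0.067, 0.68 and 1.36 without mouse 1, 2 or 3, and the second was 3.72, 1.44 and 3.37. The niche factor Cxcl12, one of 8 reticular stroma markers, had the same order of mice within Grem1+, at 8.44, 9.70 and 5.18, and was at 6.60, 6.14 and 6.51 in Grem1-. Foxc1 of that list had this order too, at 7.82, 8.35 and 7.35 in Grem1+, and was dim in Grem1-, at 2.38, 2.49 and 2.73. The other tested markers were lowest in mouse 1, with Lepr at 3.01, 7.43 and 4.87, Pdgfrb at 8.51, 10.11 and 8.89 and Vcam1 at 3.01, 6.90 and 5.88. Of those 8 markers 5 were tested, 1 was higher and 0 lower. The 1 was Foxc1, which entered the test through its Grem1+ arrays alone. By their brightest tested probe set, 11.1% of all genes were higher and 7.81% lower. Summed levels of the 8 markers were 9.94, 11.34 and 9.63 in Grem1+ and 8.84 to 9.43 in Grem1-, and their part in the Igfbp5 values was not tested.

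Igfbp2, Igfbp3 and Igfbp6 were at the edge of dim signal. Igfbp6, which prefers IGF-II, was at 4.02, 4.22 and 3.84 in Grem1+ and at 4.09, 5.42 and 3.73 in Grem1- (difference -0.38, SE 0.39, limma adjusted p = 0.553). Igfbp2, which neighbours Igfbp5 on chromosome 1, was at 3.57 to 4.07 in Grem1+ and at 3.81 to 3.97 in Grem1-. Igfbp3, the main carrier of IGFs in blood, was at 2.93 to 3.97 in Grem1+ on its 2 probe sets and at 2.90 to 3.96 in Grem1-, apart from a value of 5.41 for Igfbp3 1423062_at in the Grem1- array of mouse 2. None of the 3 probe sets of Igfbp2 and Igfbp3 was bright enough to be tested.

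Other genes of IGF supply and signalling were taken from a list of 54, of which 34 were tested by their brightest probe set, 15 were dim and 5 were not analysed here, H19 among them. Of the 34, 10 were higher in Grem1+, 0 were lower and 24 did not pass, while 11.1% and 7.81% of 10151 genes were higher and lower by the same rule. The median difference was 0.63 over the 34 and 0.04 over all genes. The list was chosen with earlier results of these data known, and Irs1 entered the test through its Grem1+ arrays alone. Nothing is therefore read from this share or from the medians.

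**Figure D4:**
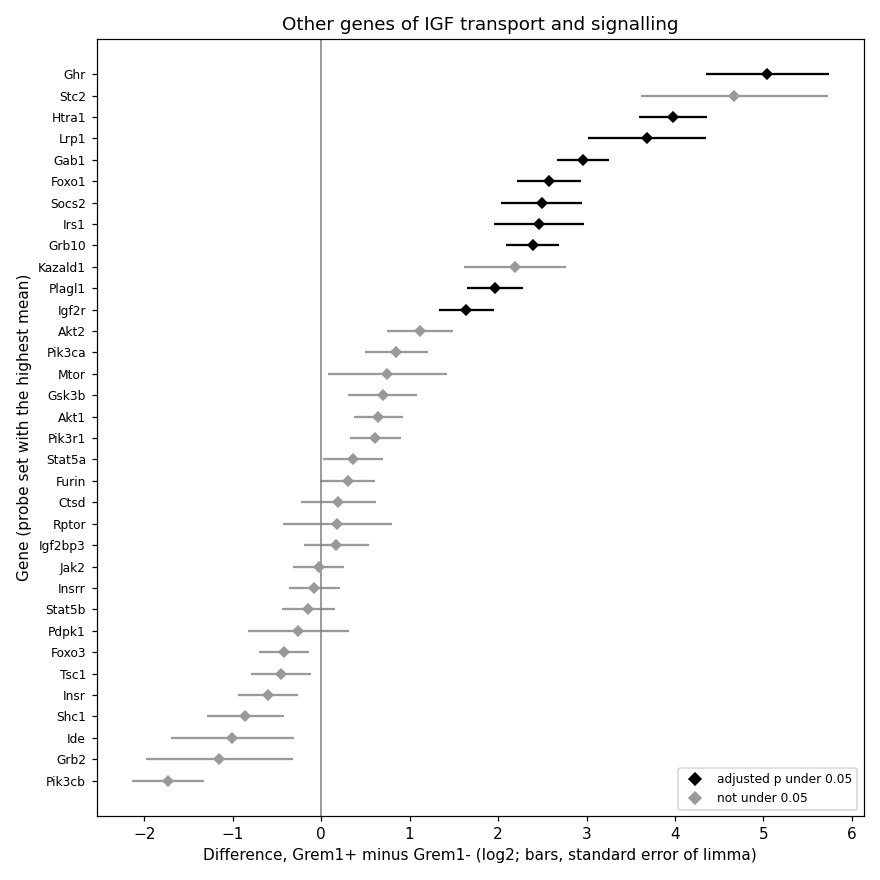
Difference, Grem1+ minus Grem1- (log2, bars show the limma standard error), of the 34 tested genes of the pathway list, black where the adjusted p was under 0.05. Ghr is at the top with 5.04 and the black points all lie right of 0.

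Upstream of Igf1, the growth hormone receptor gene Ghr was at 8.88, 9.002 and 8.00 in Grem1+ and at 3.15, 5.81 and 1.79 in Grem1- (difference 5.04, SE 0.69, limma adjusted p = 0.0202). All Grem1+ arrays lie above the Grem1- arrays, and with dim values set to 4 the difference was 4.02. Of its 3 tested probe sets 1 was called, and all 3 carry a suffix for probes that further transcripts may share.

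Of genes that act on ligands and binding proteins, Htra1, a secreted protease that cleaves several binding proteins, was at 9.25, 9.80 and 9.02 in Grem1+ and at 5.96, 5.83 and 4.36 in Grem1- (difference 3.98, SE 0.39, limma adjusted p = 0.0121). Lrp1, a large endocytic receptor, was at 10.17, 9.90 and 8.57 in Grem1+ and at 4.92, 7.73 and 4.92 in Grem1- (difference 3.69, SE 0.67, limma adjusted p = 0.0332). Igf2r, which takes up IGF-II for breakdown, was at 10.28, 10.58 and 9.89 in Grem1+ and at 8.85, 8.51 and 8.47 in Grem1- (difference 1.64, SE 0.31, limma adjusted p = 0.0366). For each of these 3 genes both tested probe sets were called higher. Pappa, the gene of PAPP-A, was at 3.88, 4.76 and 3.48 in Grem1+ and 3.62, 4.15 and 3.45 in Grem1- and was too dim to test, as was Igfbp1, the neighbour of Igfbp3 on chromosome 11, at 3.01 to 3.25 in Grem1+ and 2.69 to 2.92 in Grem1-.

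Inside the cell, Gab1, a docking adapter of receptor kinases, was at 7.59, 7.96 and 7.63 in Grem1+ and at 4.94, 4.76 and 4.60 in Grem1- (difference 2.96, SE 0.30, limma adjusted p = 0.0125), with all 3 of its probe sets called. Foxo1, a transcription factor that insulin and IGF signalling holds out of the nucleus, was at 11.13, 10.67 and 10.60 in Grem1+ and at 8.00, 8.74 and 7.94 in Grem1- (difference 2.57, SE 0.36, limma adjusted p = 0.0211), with 2 of 4 probe sets called. Irs1, the substrate that couples the receptor to PI3 kinase, was at 5.71, 6.15 and 4.44 in Grem1+ and dim on all Grem1- arrays, at 2.88, 2.84 and 3.19. Irs1 thus entered the test through its Grem1+ arrays alone. It was at least 2.70-fold higher (limma adjusted p = 0.0432) and lost its call with dim values set to 4. Irs2, its relative, was at 3.49, 4.68 and 3.16 in Grem1+ and 2.99, 3.17 and 3.35 in Grem1- and was too dim to test. The insulin receptor gene Insr was at 5.57, 6.51 and 5.76 in Grem1+ and 5.77, 6.94 and 6.93 in Grem1- and did not pass (difference -0.60, SE 0.34, limma adjusted p = 0.293). The remaining 3 genes called higher were Socs2, a feedback inhibitor of growth hormone signalling, Grb10, an imprinted adapter that restrains the receptor, and Plagl1, an imprinted zinc finger factor.

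Blood cell markers were lower in Grem1+. Of 12 pan-haematopoietic markers 10 were lower in Grem1+ and 0 higher, with summed levels of log2 11.99 to 13.03 in Grem1+ and 14.56 to 14.64 in Grem1-. Cd48 and Dock2 of that list were dim on all Grem1+ arrays and entered the test through Grem1- alone. Of 10 measured granulocyte markers 7 were lower and 0 higher. By their brightest tested probe set, 7.81% of all genes were lower. The part of the blood cells in the differences of the IGF genes was not tested.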

How the data were processed

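Per the labels' protocols, total RNA of each sorted fraction was amplified (Ovation One-Direct, NuGEN) before biotin labelling. The deposited table gives log2 expression per probe set, the scale being clear from its values. The submitters' processing notes name GCRMA, whose version is not given in the sources used here. Scanner files were not analysed here.

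Control probe sets and those with several symbols or none were left out. limma 3.58.1 (R 4.3.3, lmFit and eBayes) was fitted to 18157 probe sets with mouse as a blocking factor, and two-sided p-values received Benjamini-Hochberg adjustment at a threshold of 0.05, with 2 residual and 2.28 prior degrees of freedom. The fit was checked only on data simulated from its own model, which cannot test the model's assumptions. The pairing comes from the series design text, and deviations of same-numbered arrays correlated at 0.01, 0.05 and 0.03. Where the lower group was dim on all arrays, folds are bounds on the mean over the mice, with dim values set to log2 4. For the pathway list, the brightest tested probe set stood for a gene, and named were its 5 largest called differences in each direction plus H19, Igf2r, Insr, Irs1, Irs2, Pappa and Igfbp1. Other names (Socs2, Grb10, Plagl1, Stc2, Grb2, Pik3cb, Cxcl12) were chosen after their values were seen. Genes with profiles like the called Igf1 1434413_at are not reported, since its Grem1- values are all dim. Members and lists were chosen with earlier results of these data known.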

Additional observations from a re-analysis of the deposited data

How the results depend on the processing

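Among 17 alternatives, 16 tested Igf1 1419519_at, and it kept its call in 13, losing it only where a mouse was left out under the replicate block. The 4 member calls became 1 without the filter on dim probe sets, which tests 34945 probe sets, and 2 with a single probe set per gene, which leaves 7 member probe sets. Without the replicate block 5 passed, and 0 were lower in each alternative run. Leaving out a mouse gave 0 to 3 member calls, with 0 for each mouse under the block, when no probe set of any gene was called but 4967 to 5158 had an unadjusted p under 0.05 in limma. Without the block, 2 were called without mouse 2. The 10 higher pathway genes became 5 without the filter, where Ghr, Igf2r, Irs1, Lrp1 and Socs2 were lost, and 0 to 8 when a mouse was left out. Without the probe sets that carry a suffix for shared probes they became 7. Foxo1, Ghr, Grb10 and Plagl1 were then lost, and Stc2, dim on all Grem1- arrays, was added. The lower count of 0 became 1 without the replicate block and with an intensity trend and robust priors (Pik3cb in both), and 0 to 1 when a mouse was left out (Grb2 without mouse 1, Pik3cb without mouse 3, both without the block). Pik3cb was dim on all Grem1+ arrays and entered the test through Grem1- alone, so nothing is read from its calls. Leaving out a mouse turned the sign of 7 uncalled probe sets, whose differences then ran from -0.63 to 0.025 for Igfbp6 1417933_at, from -0.14 to 0.0057 for Igfbp4 1421991_a_at, from -0.29 to 0.31 for 1421992_a_at, from -0.52 to 0.070 for 1423756_s_at, from -0.084 to 0.26 for Igf1r 1426565_at, from -0.29 to 0.50 for 1446303_at and from -0.019 to 0.27 for 1452108_at. The causes were not tested. The number of arrays limits precision.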

Other observations

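Stc2, the gene of stanniocalcin 2, an inhibitor of PAPP-A, stood out within the pathway list without a call for its brightest probe set. Stc2 1449484_at was at 5.46, 10.86 and 8.50 in Grem1+ and at 3.47, 3.69 and 3.65 in Grem1-. By the mean over the mice, not in each mouse, it was at least 19.4-fold higher in Grem1+ without passing (limma adjusted p = 0.0531). Its second tested probe set, Stc2 1419503_at, was at 6.25, 6.31 and 6.27 in Grem1+ and at 3.90, 3.56 and 3.69 in Grem1-, at least 4.84-fold higher (limma adjusted p = 0.0148). Both were dim on all Grem1- arrays and entered the test through Grem1+ alone. The Grem1+ arrays lay far apart on the first probe set and close together on the second, a contrast that was not tested.

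Transcripts named for the opposite strand of the ligand genes were near the limit for dim signal. Igf1os was at 4.69, 3.82 and 4.26 in Grem1+ and at 4.44, 4.07 and 4.29 in Grem1- (difference -0.0026, SE 0.29, limma adjusted p = 0.997), while Igf1 differed on the same arrays. Igf2os was at 3.87, 3.92 and 3.47 in Grem1+ and at 3.59, 3.72 and 3.63 in Grem1- and was not tested.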
